A study of Sus scrofa with 30 samples.

Results

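Trimethylation of histone H3 at lysine 27 (H3K27me3) was compared between pig metaphase II (MII) oocytes and 2-cell embryos, with 2 libraries at each stage. These 4 libraries were taken by mark and stage from the 30 libraries of the series, which hold 12 H3K27me3 and 18 H3K4me3 libraries in 15 groups. The MII group holds mature, unfertilised oocytes and the 2-cell group holds embryos fertilised in vitro. No other treatment or genotype is labelled for either group, and the breed and the number of cells per library are not given in the sources used here. Both groups were profiled by ultra-low-input native chromatin immunoprecipitation (ULI-NChIP), which cuts chromatin with a nuclease without crosslinking, using a Millipore antibody to H3K27me3. Each library is a list of broad peaks, stretches where the authors' peak caller found reads above its background. Marker genes of oocytes or embryos could not be used to check the labels, because a peak list holds no expression. Whether replicates came from separate collections is not labelled, and so the p-values speak only of the spread between these 4 libraries, which may be technical.

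H3K27me3 is written by Polycomb repressive complex 2 and marks chromatin of genes that are kept silent, among them many regulators of development. In many cell types it lies over gene starts, while in mammalian oocytes it also covers wide stretches away from genes. After fertilisation the embryo rebuilds this pattern, and in some species part of the oocyte's H3K27me3 passes on to the early embryo and acts as an imprint.

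H3K27me3 peaks covered far less of chromosomes 1 to 18 in 2-cell embryos than in MII oocytes. The MII libraries held 48261 and 51680 peaks, which covered 69.0 and 59.7 Mb. The 2-cell libraries held 3108 and 2312 peaks, which covered 1.98 and 1.25 Mb. Every 2-cell value was far below both MII values, and the means of 64.3 ± 6.54 and 1.61 ± 0.510 Mb (SD, n = 2 each) differed by a ratio of 39.9. On the log2 scale the 2-cell mean was lower by 5.35, written as -5.35, which is 6.64 times the replicate SD of 0.806 pooled over the 6 H3K27me3 groups. The exact two-sided permutation p was 0.333, the smallest that 2 libraries against 2 can give.

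**Figure D1:**
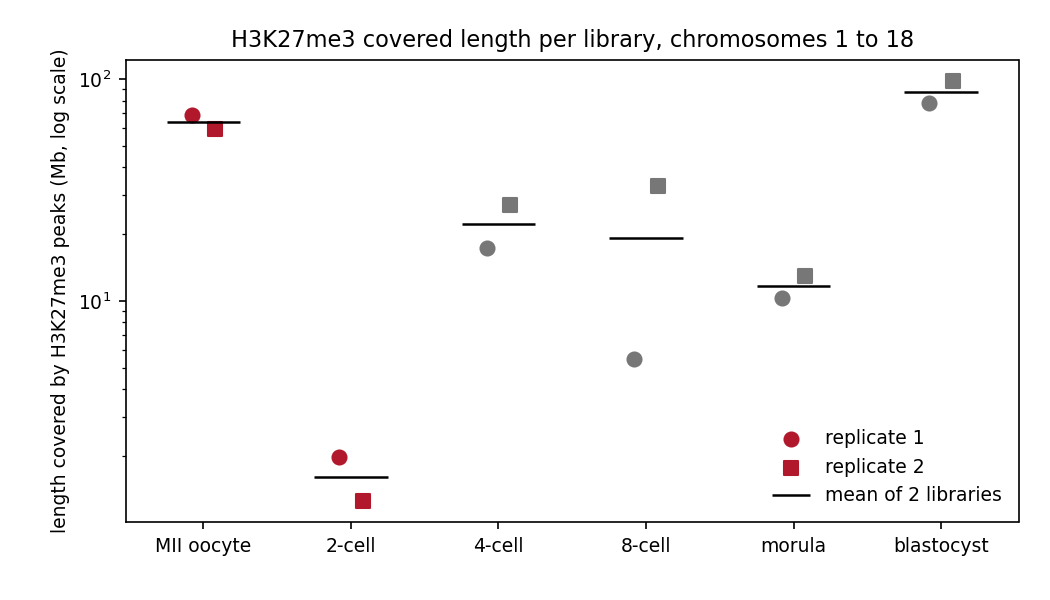
Length covered by H3K27me3 peaks on chromosomes 1 to 18 (Mb, log axis) in each of the 12 libraries, by stage; circles are replicate 1, squares replicate 2, lines the mean of 2 libraries, and the compared stages are red. The 2-cell libraries, at 1.98 and 1.25 Mb, are the lowest of the 12.

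Calling strength differed between the lists. The weakest peak of each MII list had a fold enrichment over background of 3.03 or 3.08, against 3.80 and 3.90 in the 2-cell lists. Likewise the lowest −log10 p was 3.28 and 3.32 in MII and 4.68 and 4.70 in 2-cell. With all 4 lists held to a −log10 p of at least 4.70, the covered lengths were 31.3 and 21.3 Mb in MII and 1.51 and 1.25 Mb in 2-cell. The caller's background, a guide to depth recovered from the lists, was 0.977 and 0.626 reads per position in MII and 1.11 and 0.796 in 2-cell. Read depth itself is not given in the lists, and the part of these differences in the loss was not tested.

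Peaks were also narrower at the 2-cell stage. Peaks of 5 kb or wider numbered 2326 and 1559 in MII and 10 and 7 in 2-cell. They held 30.9% and 22.5% of the covered length in MII, against 6.61% and 8.81% in 2-cell. The difference of -19.0 percentage points was 7.02 times the pooled SD of 2.71 points, with an exact permutation p of 0.333. The compared groups' own SDs were 5.94 points in MII and 1.55 points in 2-cell. The difference was -1.10 points among peaks with a −log10 q of at least 2 and 3.79 points, of opposite sign, at 5 or more. Median peak width was 759 and 640 bp in MII and 414 and 333 bp in 2-cell. Position against genes differed little by comparison. The distal share, covered length more than 5 kb from every end of a coding gene, was 83.2% in both MII libraries and 84.7% and 86.0% in the 2-cell libraries. That difference of 2.11 points was 5.21 times the pooled SD of 0.406 points, again with an exact permutation p of 0.333. The groups' own SDs were 0.0526 points in MII and 0.925 points in 2-cell, so the pooled SD understates the 2-cell spread. The difference changed sign to -0.92 points when only peaks with a −log10 q of at least 2 were used.

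To follow single places, the peaks of both MII libraries were merged, and the 21924 stretches holding a peak of each were taken as shared MII regions. They spanned 64.0 Mb with a median width of 1902 bp. The other 50117 stretches came from 1 MII library alone and were narrow. Their summed length was 27.5 Mb, and 98.5% of them had no 2-cell peak. Overlap between libraries, given as the bases shared over the bases in either, was 0.406 for the MII replicates and 0.0749 for the 2-cell replicates. Each MII library overlapped each 2-cell library by 0.00649 to 0.0106, a measure held low by the much shorter 2-cell lists. Of the 2-cell covered length, 43.7% in replicate 1 and 41.7% in replicate 2 lay inside peaks of either MII library. A region was called lost when no peak of either 2-cell library met it by even 1 bp, and kept when peaks of both did. These names describe peak lists, so a lost region is a place with no peak called, which need not mean no H3K27me3.

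Of the 21924 shared MII regions, 20731 were lost, or 94.6% (95% Wilson interval 94.3 to 94.9, covering counting error only). A further 1015 were met in 1 of the 2-cell libraries, 647 in replicate 1 and 368 in replicate 2. Peaks of both 2-cell libraries met 178, or 0.812%. With peaks of a −log10 q of 5 or more only, 53 shared MII regions remained, of which 37.7% were lost and 29 were kept. A single 2-cell list met many more regions than both together, 546 in replicate 2 and 825 in replicate 1. Lost regions spanned 57.7 Mb with a median width of 1862 bp, and 12.1% of them (2510) were 5 kb or wider. Kept regions spanned 1.30 Mb with a median width of 3934 bp, and 37.1% of them (66) were 5 kb or wider. Wide regions were therefore more frequent among the kept. The median distance to the nearest coding gene end was 35593 bp for lost and 35564.5 bp for kept regions. Gene ends held 11.4% of lost and 15.7% of kept regions, and 48.4% of lost and 41.6% of kept regions met a gene body.

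Width separated the regions most clearly by count. The share lost was 97.4% of 4237 regions under 1 kb, 96.2% of 7282 regions of 1 to 2 kb and 94.0% of 7546 regions of 2 to 5 kb. It was 90.2% of 2058 regions of 5 to 10 kb, 84.0% of 642 regions of 10 to 20 kb and 72.3% of 159 regions of 20 kb or more. A wider region offers more places for a peak to meet it, so the length still covered was set beside the count. In 2-cell replicate 1 that length was 0.991% of the narrowest class, between 0.960% and 1.10% of the next 4, and 2.10% of the widest. Replicate 2 covered 0.607% of the narrowest, 0.488% to 0.631% of the next 4 and 1.92% of the widest. The higher value of the widest class rested on 3 of its regions that hold stretches found in every other library of the series, described with the kept regions. Without such regions the widest class was covered to 0.525% and 0.344%, below the narrowest class at 0.881% and 0.505%.

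**Figure D2:**
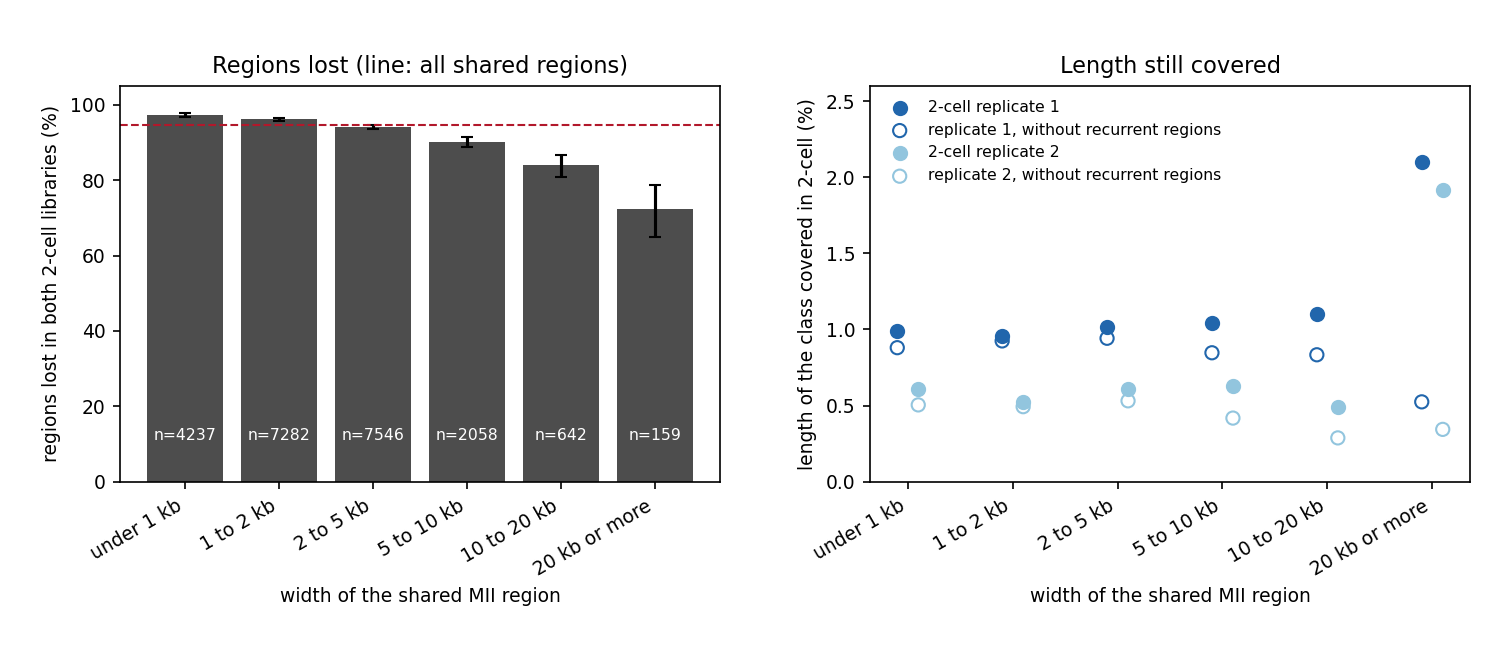
Left, percent of shared MII regions with no peak in either 2-cell library, by region width, with 95% Wilson intervals; the dashed line is the 94.6% of all regions. Right, percent of each class's length covered in each 2-cell library, with all regions (filled) and without the 28 regions that hold recurrent stretches (open). The count lost runs from 97.4% to 72.3%, while the open points stay under 1% in every class.

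The 10 widest lost regions were between 37852 and 65584 bp wide. The widest lay at an end of SNED1, a gene for an extracellular matrix protein, on chromosome 15 from 139789647 to 139855230 (susScr11). Peaks covered 62980 and 57110 bp of it in MII and 0 bp in both 2-cell libraries. They covered 31405 and 34054 bp again in the blastocyst libraries. At an end of PLCH2, a phospholipase C gene on chromosome 6 (64335023 to 64391733), MII coverage of 55827 and 48992 bp went with 0 bp in 2-cell and only 2599 and 2149 bp in blastocysts. Near THBS2, which encodes the matrix protein thrombospondin 2, a region 5518 bp from the gene on chromosome 1 (887985 to 937980) had 47657 and 46426 bp in MII. It had 0 bp in both 2-cell libraries, and 38959 and 41344 bp in blastocysts.

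Other wide lost regions lay at an end of PWWP2B (46075 bp wide) and of LOC110259220 (39257 bp), and inside HIVEP3, a zinc finger gene (40759 bp). One more lay inside FAM19A5, which encodes a small secreted protein (37852 bp). Outside genes they lay near ADGRA1, an adhesion receptor gene (39908 bp), and TEX29 (38031 bp). GRB10, an imprinted gene for an adaptor of insulin receptor signalling, carried 38915 bp of shared region inside its body on chromosome 9 (136608275 to 136647189). Its coverage was 36342 and 35926 bp in MII and 0 bp in both 2-cell libraries, and in blastocysts 0 and 1657 bp. All 10 regions thus had no 2-cell base covered, while their blastocyst coverage ran from almost none at GRB10 to most of the region at THBS2.

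Distance to coding genes made less difference than width. Regions meeting the 1 kb on either side of a gene end were lost in 95.8% of 2476 cases, and other regions in gene bodies in 95.2% of 8266. Outside genes the share lost was 94.2% of 745 regions within 5 kb of an end, 94.8% of 4011 at 5 to 50 kb, 93.2% of 6008 at 50 to 500 kb and 92.1% of 418 beyond 500 kb. The length covered in 2-cell replicates 1 and 2 was 1.30% and 1.07% at gene ends, 0.907% and 0.500% in gene bodies, and 1.31% and 0.768% at 50 to 500 kb. Without regions holding recurrent stretches, gene ends dropped to 0.603% and 0.373%, the lowest of the 6 distance classes in both libraries, in replicate 2 by a narrow margin (0.388% within 5 kb). Regions at 50 to 500 kb then had 1.14% and 0.638%, and those beyond 500 kb 1.30% and 0.609%. No region beyond 500 kb was kept, which with 418 regions allows a share of up to 0.718%.

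**Figure D3:**
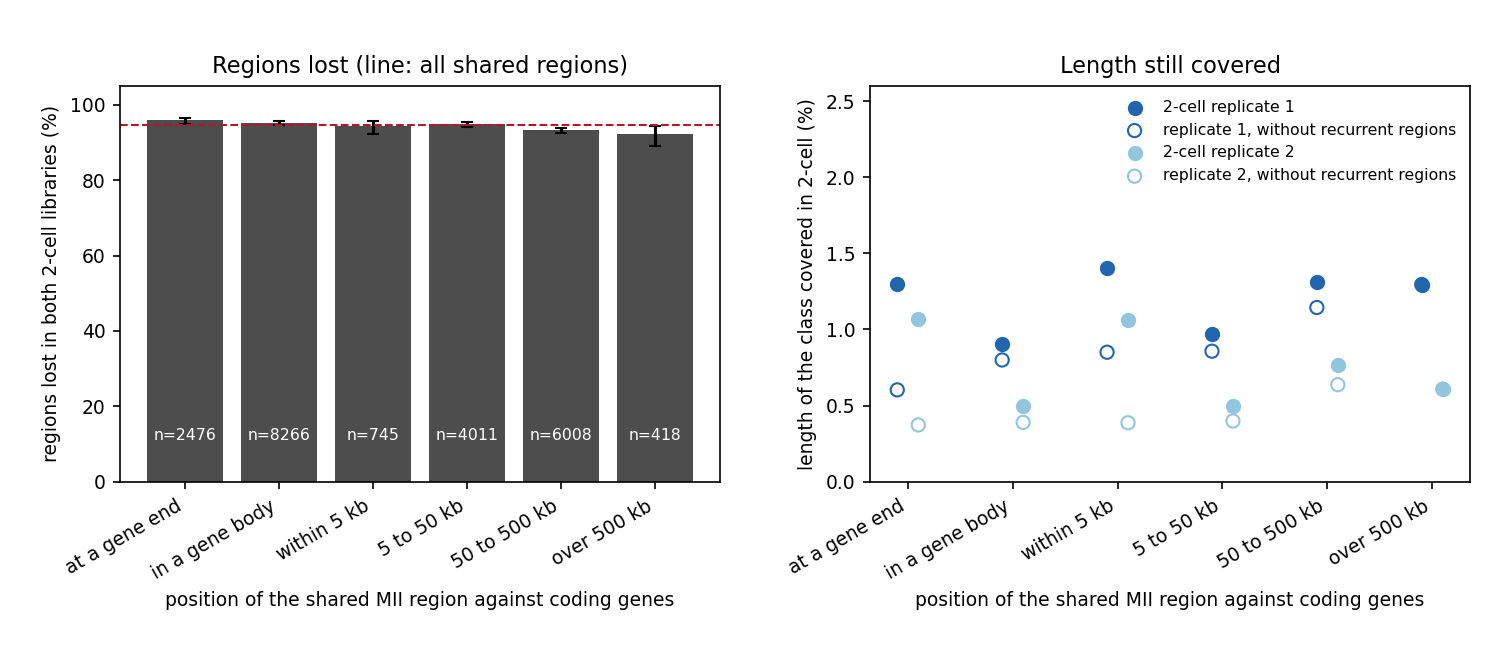
Left, percent of shared MII regions lost, by position against coding genes, with 95% Wilson intervals; the dashed line is all regions. Right, percent of the length of each class covered in each 2-cell library, with all regions (filled) and without regions that hold recurrent stretches (open). The share lost spans only 92.1% to 95.8% over the classes.

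Within each distance class, wide regions were again lost less often by count. At gene ends, 97.6% of regions under 5 kb were lost against 89.7% of wider ones, and at 50 to 500 kb the same values were 94.2% and 85.1%. Among lost regions within 5 kb of a gene but outside it, the widest lay near DACT2, which encodes an antagonist of Wnt and Nodal signalling (22678 bp wide, chromosome 1). Next came a region near SNAI2, a zinc finger regulator of epithelial to mesenchymal transition (19216 bp), and one near COL5A1, a fibrillar collagen gene (17661 bp). At 5 to 50 kb and at 50 to 500 kb, wide lost regions lay near LPCAT1 (37708 bp), EIPR1 (35571 bp) and IRX2, a homeobox gene (29550 bp). Beyond 500 kb the widest were 12149 and 9683 bp, both nearest to VSTM2A on chromosome 9, and 9622 bp nearest to MGMT on chromosome 14. By chromosome, the share lost ran from 92.4% on chromosome 13 to 97.2% on chromosome 12. Chromosome 6 had the most shared regions (2377) and the most kept, 25 or 1.05%, beside 0.812% of all shared regions. The highest kept share was on chromosome 8, with 17 of 957 (1.78%). Chromosome 11 had 0 of 624, which allows up to 0.481%.

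Most of the 178 kept regions were met by little in the 2-cell lists. Their median coverage was 25.1% of region length in replicate 1 and 19.3% in replicate 2. In 97 of them, the 2-cell library with less coverage covered under 500 bp. At least 50% of the length was covered in both libraries in 39 regions. Of the 16 kept regions of 20 kb or more, 14 were covered to under 10% in the 2-cell library with less coverage. The other 2, at SUSD4 and LOC102162336, were covered to over 50% in both. At HDAC4, a histone deacetylase gene, the widest shared MII region of all (86468 bp, chromosome 15, 138367041 to 138453508) had 83628 and 79383 bp covered in MII. Only 1007 and 1396 bp of it were covered in 2-cell. At PRDM16, a zinc finger regulator of brown fat, 52320 and 48419 bp in MII stood against 302 and 912 bp in 2-cell. INPP5A, an inositol phosphatase gene, had 45597 and 42221 bp against 1279 and 249 bp. These 3 were named for their width after their values were seen.

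Part of what was kept was present in every library. Stretches covered by peaks in all 26 other libraries of the series, of both marks, numbered 45 and summed to 81599 bp. The MII libraries covered 81591 and 81582 bp of them, and the 2-cell libraries 80841 and 80966 bp. They took 4.09% and 6.46% of all 2-cell covered length, and 46.1% and 49.0% of the length in 2-cell peaks with a −log10 q of at least 3. Of the 178 kept regions, 28 held such a stretch, and their summed 2-cell coverage was 150635 and 145528 bp. The other 150 kept regions together had 151546 and 114464 bp, with median coverage of 19.7% and 12.5% of their length. What gives rise to peaks of both marks there was not tested.

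The 15 kept regions with the most 2-cell coverage were largely of this kind, since 12 of them had peaks in all 30 libraries. First was a region over an end of SUSD4, which encodes a membrane protein that regulates complement, on chromosome 10 from 19414720 to 19457527. It had 42808 and 42495 bp covered in MII and 42406 and 42389 bp in 2-cell, and H3K4me3 peaks in MII covered 42407 and 42451 bp of it. Inside the same gene, 13290 bp from 19482374 had 13290 and 12869 bp in MII and 12802 and 12880 bp in 2-cell. On the same chromosome a region over LOC102162336 (24932382 to 24962294) had 29869 and 29857 bp in MII and 29867 and 29881 bp in 2-cell. In these 3 regions both stages were covered almost end to end.

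The remaining regions in all 30 libraries were smaller. Inside EEA1, a gene for an endosome tethering protein on chromosome 5, one region of 7988 bp had 7761 and 7936 bp covered in 2-cell, and another of 5052 bp had 4991 and 5013 bp. Regions near LOC397451 (7095 bp wide), KIAA1549L (5246 bp), LOC102167213 (12000 bp), LOC102160416 (4498 bp), LOC110261043 (4069 bp) and LOC110260582 (6868 bp) had between 3442 and 10304 bp covered per 2-cell library. The highest enrichment was nearest to ROPN1L, a gene for a sperm flagellar protein, at 8164 to 11861 near the start of chromosome 16. Its top fold was 169 and 149 in MII and 183 and 202 in 2-cell.

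Only 3 of the 15 lay outside those recurrent places. PR39 encodes a pig cathelicidin, an antimicrobial peptide, and a region at its end (chromosome 13, 30952535 to 30956474) had 1582 and 3940 bp covered in MII. In 2-cell it had 3825 and 3543 bp, so the 2-cell values lay between the MII values. The region was covered in all later H3K27me3 libraries, at 2046 to 3940 bp. At LOC100154933 on chromosome 14, coverage was 6733 and 5720 bp in MII, 2944 and 3766 bp in 2-cell, and 0 bp in both morula libraries. Inside LOC102162044 on chromosome 10, the values were 2677 and 1838 bp in MII and 2759 and 2646 bp in 2-cell. That region also had 0 bp in both morulae.

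**Figure D4:**
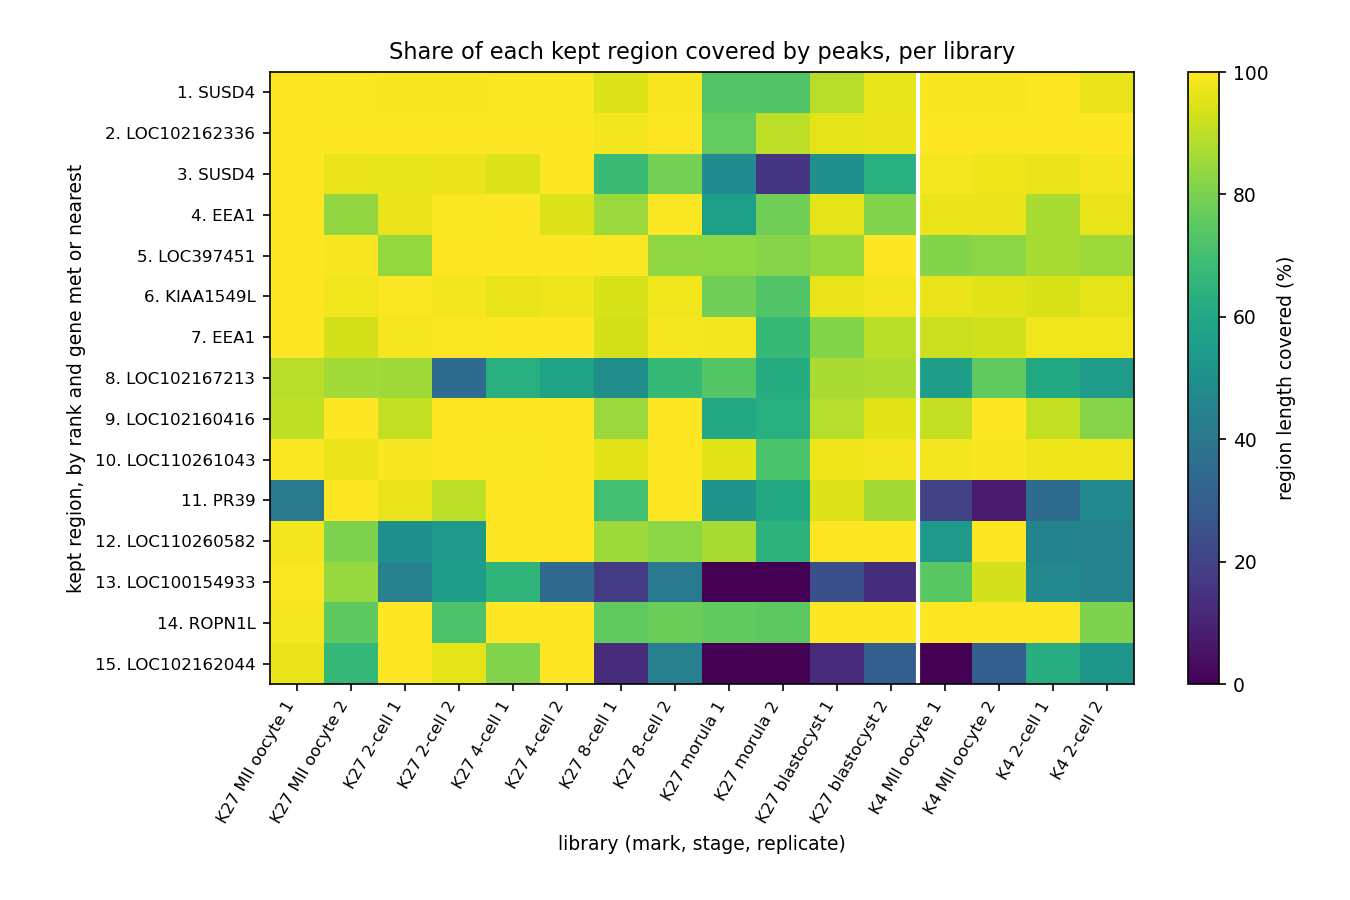
Percent of each of the 15 kept regions (rows, named by the coding gene met or nearest, ranked by the lower 2-cell coverage in bp) that peaks cover in each library (columns: 12 H3K27me3 libraries, then H3K4me3 at MII and 2-cell). Most rows are bright across both marks; PR39, LOC100154933 and LOC102162044 are the 3 rows that are not in all 30 libraries.

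Kept regions also lay in clusters, picked out here after their positions were seen. On chromosome 8, 8 kept regions fell between 41236320 and 41771170, the neighbourhood of KIT, which encodes the stem cell factor receptor. That span held 57 shared MII regions, of which 39 were lost. None of the 8 met KIT. The closest to it lay 72151 bp away, and others were nearest to another coding gene, KDR, from 37946 bp. The least covered of the 8 had 43 bp in 2-cell replicate 2. Summed over the 8, coverage was 35729 and 27798 bp in MII and 17155 and 9183 bp in 2-cell. It was 7491 and 18114 bp at the 4-cell stage, and 812 and 1258 bp in morulae. None of the 8 held a recurrent stretch. On chromosome 6, 7 kept regions near AJAP1, an adherens junction gene, lay among 141 shared regions, with 27608 and 25263 bp in MII and 6833 and 3860 bp in 2-cell. Near SUSD4 on chromosome 10, all 6 shared regions from 19169721 to 19495663 were kept, with 64224 and 62921 bp in MII and 62601 and 63602 bp in 2-cell.

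Regions found in 2-cell embryos and not in MII oocytes were also counted. Peaks of both 2-cell libraries shared 203 merged regions, of which 126 met peaks of both MII libraries, 39 met 1 and 38 (18.7%) met neither. This count depends on asking for both 2-cell libraries, whose peaks overlap little: 1783 of 3108 peaks of replicate 1 and 1454 of 2312 of replicate 2 met no MII peak. It was 0 at a −log10 q of 2 or more, 76 at a fold of 3.5 or more, 67 at the common −log10 p, and 51 and 64 without MII replicate 2 or 1. The fold of 3.5 removed no 2-cell peak and cut the MII lists to 17564 and 18692 peaks. Likewise the common −log10 p removed no peak of 2-cell replicate 2. The 38 summed to 39676 bp and the widest was 2638 bp. The 5 widest lay inside LOC100155249 (chromosome 5), near KIT on chromosome 8 (41534371 to 41536234), near LOC100627824, near BAIAP2L1 and at an end of CD276, an immune checkpoint gene. Their 2-cell coverage ran from 345 to 2638 bp per library.

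Gene ends gave the same picture. A peak within 1 kb of either end of a coding gene marked that gene, and both ends were used because the annotation gives no strand. Both MII libraries marked 2120 of 18722 genes, and 2066 of these (97.5%) were marked in neither 2-cell library. A further 41 were marked in 1 and 13 in both. With stricter lists fewer genes were marked in MII: 753 of 771 marked genes were lost at the common −log10 p, and 293 of 296 at a −log10 q of 3 or more. Of 14999 genes marked in neither MII library, 3 (0.02%) were marked in both 2-cell libraries. These were CCL21, a lymphocyte-attracting chemokine, ATP13A4 and CD276.

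Many regulators of development carried the mark in MII oocytes. Of the HOX genes, which pattern the body axis, 24 of 36 (66.7%) were marked in both MII libraries, beside 11.3% of all coding genes, and all 24 lost the mark. HOXB8 had 10518 and 10706 bp of peaks within 5 kb of its ends in MII and 0 bp in both 2-cell libraries. HOXA3 and HOXA6 had between 8642 and 9899 bp per MII library and 0 bp in 2-cell. HOXA6 lies inside the span of HOXA3, so their windows share bases and are not separate observations. Other developmental transcription factors were marked in 103 of 184 listed cases and lost in all 103. This rests on which genes are listed: the forkhead regulators FOXL1 (302 and 0 bp in 2-cell) and FOXS1 (0 and 847 bp), which are not, were marked in both MII libraries and in 1 2-cell library. The whole shared region over an end of FOXL1 (22492 bp wide) was among the kept, with 941 and 643 bp in 2-cell. GATA5, a regulator of heart and gut, had 15949 and 14922 bp in MII, TWIST2, a mesenchymal regulator, 14354 and 16211 bp, and the homeobox gene IRX4 12177 and 13539 bp. All 3 had 0 bp in 2-cell. Signalling ligands were marked in 25 of 60 cases and lost in 25, led by WNT7B, FGF3 and FGF6 with 9307 to 14437 bp per MII library and 0 bp in 2-cell. Farther out, a region 11060 bp from FGF3 was kept, with 388 and 1179 bp in 2-cell.

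Genes of the first embryonic lineages showed the same. The mark was present at MII and lost at 6 of 29 pluripotency genes, among them DNMT3L, a DNA methylation cofactor, and the transcription factors UTF1 and TBX3. It was lost at 10 of 28 trophectoderm genes and 10 of 24 hypoblast genes, which again were all that had been marked. GATA3, a trophectoderm regulator, had 14389 and 17120 bp in MII and 0 bp in 2-cell. GATA2 had 13374 and 14730 bp in MII and was the exception among the named lineage genes, with 978 and 0 bp in 2-cell, none of it at a gene end. DLX3, COL4A2, GATA6 and FOXA2 had 6679 to 10346 bp per MII library and 0 bp in 2-cell. Since 97.5% of all marked genes lost the mark, these counts do not set the lists apart from other genes.

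Imprinted genes, which are expressed from 1 parental copy, were marked in 24 of 54 cases. TSPAN32 had 19892 and 17722 bp in MII, and RTL1 and DLK1, neighbours on chromosome 7, had 15374 to 17308 bp per library. All 3 had 0 bp in 2-cell. TSPAN32 lies inside the wide lost region named above by LOC110259220, so the losses under these names are not separate observations. MAGEL2 was the only listed gene marked at MII that was not lost, with 1727 and 2332 bp in MII and 279 and 0 bp in 2-cell. The mean difference of -1890 bp turned to 139.5 bp at the common −log10 p and at a −log10 q of 3 or more. MAGEL2 had 2849 and 3784 bp in 4-cell embryos. Of 36 genes for Polycomb proteins and H3K27 demethylases, 3 were marked and lost, CBX7, SCMH1 and EPOP. CBX7, a reader of H3K27me3 in Polycomb complex 1, had 4565 and 4766 bp in MII and 0 bp in 2-cell. None of 36 oocyte and maternal-effect genes and none of 72 ribosomal protein genes was marked in both MII libraries. Among 16 genes of cumulus and granulosa cells, the somatic cells around the oocyte, INHA and FOXL2 were marked in MII and lost.

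The 13 genes marked in all 4 libraries were SUSD4, CYB5R1 and LOC102162336 on chromosome 10, PR39 and its neighbour PMAP-23, another cathelicidin, and RBFOX3, CD34, RNASE13, UGT2B31, LOC100154933, LOC102161654, LOC100518109 and LOC100737881. They differed in how much remained. CD34, a marker of blood stem cells, had 13819 and 12032 bp in MII and 1422 and 794 bp in 2-cell. RBFOX3, a neuronal splicing factor gene, had 7987 and 6311 bp against 2087 and 215 bp. PMAP-23 had 3536 and 2537 bp in MII and 4848 and 2218 bp in 2-cell, with overlapping values. The windows of PR39 and PMAP-23 overlap, so these are not separate observations.

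Libraries that did not define the classes gave other values for lost and for kept regions. Peaks of both libraries met 5.67% of lost regions at the 4-cell stage, 3.43% at the 8-cell stage, 3.68% in morulae and 27.7% (5742 regions) in blastocysts. For kept regions without recurrent stretches the values were 74.7%, 43.3%, 20.7% and 56.0%. The length of lost regions covered in replicates 1 and 2 was 2.51% and 3.07% at 4 cells and 18.96% and 24.6% in blastocysts. Kept regions without recurrent stretches had 14.7% and 19.5%, then 22.3% and 31.7%. In neither class do these values come from the 4 libraries compared, but kept regions were wider, which makes a peak more likely to meet them. The 8-cell replicates differed more than any others, covering 1.02% and 5.48% of lost length. The later lists also differed in size and calling strength. Blastocyst lists covered 77.7 and 98.1 Mb, with a lowest fold of 2.86 and 2.75. Morula lists covered 10.3 and 12.9 Mb, with a lowest fold of 3.42 and 3.39. The 4-cell lists covered 17.4 and 27.2 Mb and the 8-cell lists 5.50 and 33.0 Mb. The part of these differences in the later values was not tested.

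**Figure D5:**
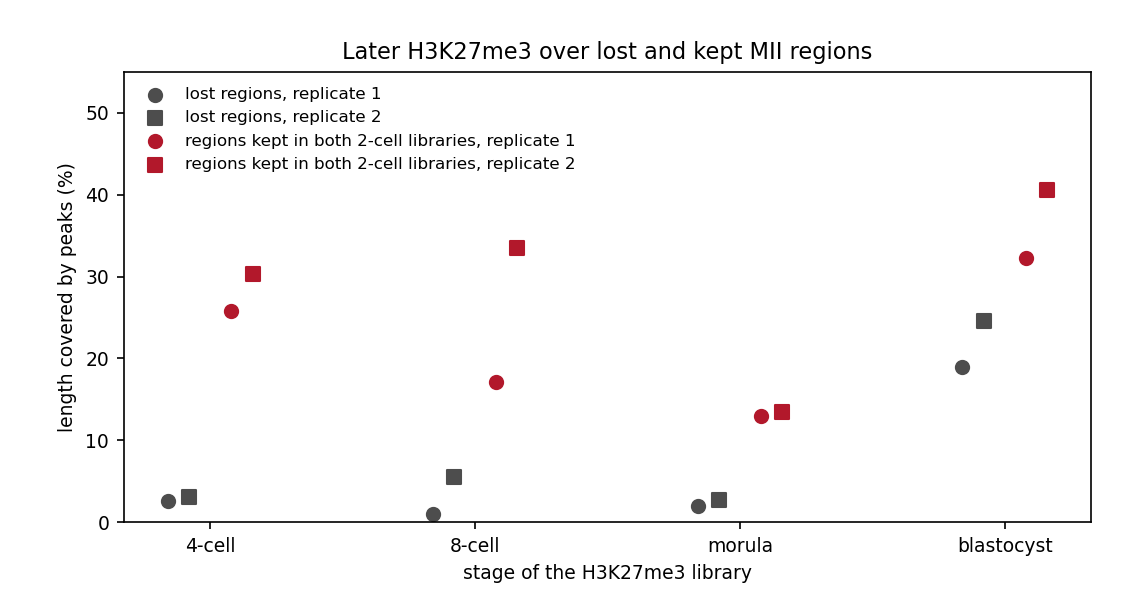
Percent of the length of lost regions (grey) and of the 178 kept regions (red) covered by H3K27me3 peaks in each later library; circles are replicate 1 and squares replicate 2. Lost regions stay under 6% until the morula and reach 18.96% and 24.6% in blastocysts, while kept regions, recurrent stretches included, lie higher at every stage.

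Return in the blastocyst followed width. Both blastocyst libraries met 10.1% of lost regions under 1 kb and 92.2% of those of 20 kb or more. By length they covered 10.1% and 12.7% of the narrowest class and 31.1% and 39.7% of the widest. Length shares also rose with width in the MII libraries that defined the regions. Those covered 73.7% and 69.5% of all shared regions under 1 kb and 95.9% and 89.7% of those of 20 kb or more. By position, both blastocyst libraries met 45.4% of lost regions at gene ends again, against 17.7% beyond 500 kb. By length the gap was smaller, with 24.9% and 31.0% at gene ends and 13.7% and 16.8% beyond 500 kb. Of all lost regions, 8390 (40.5%) had no peak in any later H3K27me3 library, and 59 had peaks in both libraries of all 4 later stages.

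Among the 2066 genes that lost the mark, both blastocyst libraries marked 988 (47.8%) again, and both morula libraries 174 (8.42%). The share of all coding genes marked at these 2 stages is not given here. Whether these genes were marked more often than others therefore cannot be read from the counts. In the lists, blastocysts marked 18 of 24 HOX genes again, 90 of 103 other developmental transcription factors and 20 of 25 ligands. Marked genes of these 3 lists had more MII coverage within 5 kb of their ends. Their medians in replicate 1 were 5936 to 6557 bp, against 3998.5 bp over all marked genes. The same held for trophectoderm (5928 bp), hypoblast (5418 bp), imprinted (7820 bp) and pluripotency genes (4354 bp). The counts marked again were 7 of 10 trophectoderm, 8 of 10 hypoblast and 15 of 23 imprinted genes. For pluripotency genes the count was 2 of 6 (33.3%), too few genes to set apart from the 47.8% of all genes that lost the mark. HOXB8 had 11083 and 13531 bp in blastocysts, against 10518 and 10706 bp in MII, whereas UTF1 and INHA had 0 bp. The trophectoderm regulator GATA2 had 1403 and 2237 bp, and DLX3 441 and 1090 bp, while GATA3 had 8364 and 8686 bp.

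The active mark H3K4me3, which lies at starts of active and poised genes, was present at many of the same places. Both MII H3K4me3 libraries met 49.6% of lost regions, and both 2-cell libraries 45.9%. For kept regions without recurrent stretches the values were 70.7% and 42.0%, but these were wider, which makes a peak more likely to meet them. By length, MII H3K4me3 peaks covered 29.4% and 45.9% of these kept regions, against 26.5% and 41.8% of lost regions. In 2-cell the shares were 25.8% and 18.3% of kept and 35.0% and 26.96% of lost length. At gene ends that lost H3K27me3, H3K4me3 was found in both MII libraries for 1660 genes (80.3%) and in both 2-cell libraries for 1801 (87.2%). Over all 18722 coding genes these shares were 56.9% and 72.1%. H3K4me3 length at the named genes differed in direction. HOXB8 had 3735 and 6186 bp of H3K4me3 peaks in MII and 11600 and 8968 bp in 2-cell. RTL1 had 4720 and 10155 bp in MII and 1517 and 1464 bp in 2-cell, and GATA6 had overlapping values of 7265 and 12000 bp against 8499 and 5380 bp. Over lost regions as a whole, H3K4me3 peaks covered 26.5% and 41.8% of the length in MII and 35.0% and 26.96% in 2-cell, which overlap. These 3 genes were picked after their values were seen.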

How the data were processed

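H3K27me3 ULI-NChIP-seq peak lists of 2 MII and 2 2-cell libraries were used, and the other 26 lists for values only. Per the submitters' processing notes, Bowtie2 2.4.1, MACS2 and build susScr11 were used; the MACS2 version, control, threshold and read filters are not given in the sources used here. Peaks were called per library. Each deposited peak carries a fold enrichment (ratio), a −log10 p and a −log10 q from the authors' caller. The authors' deposited display score was not used. Coordinates are printed 1-based.

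Gene positions came from RefSeq Sscrofa11.1, with 18722 coding genes on chromosomes 1 to 18. Of 601 distinct listed symbols in 11 lists, 563 matched. Members and lists were chosen with earlier results of these data known. Named items followed a rule: the 15 kept regions with most 2-cell coverage, the 10 widest lost regions, the 3 widest lost per distance class, the 3 most covered lost genes per list plus list genes not lost, and the 5 widest regions new in 2-cell. Regions and genes got no test. Library values were compared by exact two-sided permutation. Scripts (Python 3.11.15, pandas 2.3.3, numpy 2.4.6) were tested on simulated data. Alternatives changed peak thresholds, overlap, joining, gene windows and libraries. The recovered background assumes fold as (reads + 1)/(background + 1). Depth is unknown, so intervals cover counting error only.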

Additional observations from a re-analysis of the deposited data

Results flagged for a closer look

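Chromosomes X and Y lay outside the comparison and held signal of their own. Chromosome Y had 10 and 8 peaks in the MII libraries and 12 and 11 peaks in the 2-cell libraries. Oocytes carry no Y chromosome, so the MII counts give the number of peaks called there without one, and the 2-cell counts were slightly above it. The top fold on Y was 4.33 and 3.74 in MII and 24.5 and 23.3 in 2-cell. On chromosome X, 96.5% of 793 shared MII regions were lost (765 regions) and 4 were kept.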

How the results depend on the processing

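Covered length was lower in 2-cell embryos under all alternatives run, with log2 differences from -7.05 to -2.63. The replicate block left it at -5.35 (sign-flip p 0.5, the smallest possible), with broad share at -19.0 and distal share at 2.11 points. Same numbers need not mark a pairing. Holding all lists to a −log10 q of 2, 3 and 5 gave 98.2%, 96.0% and 37.7% of regions lost (53 regions remained at 5). Kept regions were then 45, 35 and 29, new regions 0, 1 and 0, and genes lost 1032, 293 and 4 (of 7 marked). A common q was not a common p. The lowest −log10 q was 1.29 and 1.19 in MII and 1.17 and 1.03 in 2-cell. The lowest −log10 p was 3.28 and 3.32, and 4.68 and 4.70, so similar q values went with a stronger p in 2-cell. At a q of 5 the broad share difference reversed to 3.79 points and the distal to -0.0232, and at 2 the distal to -0.92. A fold of 3.5, which cut the MII lists only, gave 92.8% lost, 76 new regions and 1282 genes. The common −log10 p gave 91.7%, 95 kept, 67 new and 753 genes. The lost share was 90.6% with peaks joined, 96.3% using bases in both MII libraries and 93.5% with 2-cell peaks widened by 1 kb. Asking for 10% or 50% coverage gave 96.2% and 99.3% lost, with 106 and 39 kept, and 50% of a gene window 924 genes. Leaving out 1 library gave 96.2% to 97.5% lost, 159 to 825 kept, 51 to 1783 new regions and 2083 to 2962 genes. The high values came without a 2-cell library, when a single list decides: kept regions numbered 546 without replicate 1 and 825 without replicate 2. Without recurrent stretches the broad share difference was -26.2 points and 149 regions were kept. The q of 5, the common p and the recurrent stretches were chosen after seeing the data. Among 61 named regions and genes, 511 recomputed values stayed within 1.5 times the reported one, 143 moved further without a change of sign and 17 changed sign, the last all at kept regions or MAGEL2. Of the 143, 50 came at a q of 5 and 26 at a q of 3, where fewer peaks remain. FGF6, a gene that lost the mark, went from -9879.5 bp to -704 at the common p and 0 at a q of 3. 2-cell minus MII coverage became -791 bp at PR39 at a q of 3, 139.5 bp at MAGEL2 at a q of 3 and at the common p, and 26.5 bp at LOC397451 with peaks joined. Without recurrent stretches it was 376 bp at LOC397451 and 11.5 bp at LOC110260582. Leaving out 1 library gave -67.5 to 36.5 bp (19 among them) at KIAA1549L, -204 to 229 (-191.5) at LOC102160416, -256 to 2102 at PR39, -541.5 to 483.5 (399.5) at ROPN1L, -139.5 to 1167.5 and -50 to 278 at EEA1, -0.5 to 101.5 at LOC110261043 and -1091.5 to 28.5 at LOC397451. Causes were not tested.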
